A study of Mus musculus with 96 samples.

Results

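The 7 genes described here encode the cyclin-dependent kinase (Cdk) inhibitors of both known families, 3 of the Cip/Kip family (Cdkn1a, Cdkn1b and Cdkn1c) and 4 of the Ink4 family (Cdkn2a, Cdkn2b, Cdkn2c and Cdkn2d). They were picked out by gene symbol, as the known genes of these families, and are 7 of the 15895 genes in the deposited table, where each has 1 entry. RNA was sequenced from primary embryonic fibroblasts of CF-1 mice at embryonic day 13, starved for 36 h in medium with 0.5% serum before the addition of 20% serum. The time courses are called Cycle 1, with 63 libraries used here spanning -1 h to 38 h relative to serum addition, and Cycle 2, with 32 libraries spanning -1 h to 27 h. The 12.5 h library of Cycle 1 could not be matched to values and was not used. Every time was sampled once in a Cycle, so the replicates are the 2 Cycles at the 29 hours after serum that they share. The authors joined the 2 series by an offset found for each gene, whereas equal hours were paired here without an offset. The starved state is the -1 h and 0 h libraries, 4 in all. The starved libraries are the only controls used here, so the effects of serum and of time in culture cannot be told apart. Nothing in the labels says that the 2 Cycles came from separate embryos. The p-values measure only how far the changes between windows differed between these 2 series. They do not cover the difference in level between the series, and successive windows of a series are not independent.

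Cip/Kip proteins bind complexes of cyclins with Cdk2 or Cdk1 and block them, and they also help to assemble complexes of D-type cyclins with Cdk4 and Cdk6. Ink4 proteins bind Cdk4 and Cdk6 alone and keep D-type cyclins away. Fibroblasts deprived of serum leave the cycle with high levels of p27, the protein of Cdkn1b, which is mainly removed by proteolysis once serum returns, so the transcript and the protein of this inhibitor can move apart.

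Values are the authors' exon read counts scaled to 10000000 reads per library, referred to below as values. They are not divided by transcript length. Recovered depth was 5067435 to 14500331 reads per library. All 9 fibroblast markers were in the table and their summed value was between 151464 and 519805, against 35.1 to 685 for 4 epithelial markers, 127 to 620 for 4 macrophage markers, 37.2 to 272 for 4 endothelial markers and 313 to 2180 for 3 skeletal muscle markers, mainly from Des, with Myod1 and Myog at 0 in some libraries. The summed value of 3 neural markers was between 36.7 and 344. RNA came from whole cultures, in which fewer cells of a type and less RNA per cell cannot be told apart. Differences from starved cells were tested with limma on log2(value + 1), averaged over the shared hours of a window in each Cycle, with the Cycle as a block. A gene was called at a Benjamini-Hochberg adjusted p under 0.05, over all 15895 genes, with more than a 2-fold change, and a fold change on this scale understates that of a gene with low values.

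The promoters of the member that was called higher (Cdkn1a) and of the 3 that fell earliest (Cdkn1b, Cdkn2c and Cdkn2d) are shown, since their transcripts moved within hours of serum. Each is the 250 bases before a RefSeq start, 5' to 3' on the strand of the gene, with coordinates of GRCm38.p6, and capitals mark matches to the motifs searched. The windows lie at chr17:29090729-29090978 (+, the upstream start of Cdkn1a), chr6:134920151-134920400 (+, Cdkn1b), chr4:109666757-109667006 (-, the upstream start of Cdkn2c) and chr9:21291210-21291459 (-, Cdkn2d).
Cdkn1a: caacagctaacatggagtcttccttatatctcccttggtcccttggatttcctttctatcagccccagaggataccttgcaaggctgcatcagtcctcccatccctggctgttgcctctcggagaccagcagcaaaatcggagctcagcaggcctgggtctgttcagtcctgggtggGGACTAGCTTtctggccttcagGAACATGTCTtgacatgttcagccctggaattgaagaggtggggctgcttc
Cdkn1b: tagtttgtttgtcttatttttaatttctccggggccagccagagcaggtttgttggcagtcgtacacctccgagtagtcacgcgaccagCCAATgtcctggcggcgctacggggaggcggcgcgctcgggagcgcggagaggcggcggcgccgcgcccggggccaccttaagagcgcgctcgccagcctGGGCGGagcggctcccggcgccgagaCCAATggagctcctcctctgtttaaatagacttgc
Cdkn2c: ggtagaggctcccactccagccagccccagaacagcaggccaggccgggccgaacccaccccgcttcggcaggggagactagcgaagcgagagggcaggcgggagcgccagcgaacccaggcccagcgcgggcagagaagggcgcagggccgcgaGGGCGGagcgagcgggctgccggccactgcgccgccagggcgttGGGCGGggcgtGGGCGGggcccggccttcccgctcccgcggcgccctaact
Cdkn2d: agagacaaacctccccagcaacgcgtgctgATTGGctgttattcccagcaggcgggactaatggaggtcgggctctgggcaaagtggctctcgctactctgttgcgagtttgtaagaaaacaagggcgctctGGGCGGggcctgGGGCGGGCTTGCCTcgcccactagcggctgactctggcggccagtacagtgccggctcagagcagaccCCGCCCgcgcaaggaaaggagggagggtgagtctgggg

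In Cdkn1a the capitals are 2 half-sites of the p53 motif, at -73 to -64 and at -51 to -42 from the start. In Cdkn1b they are 2 CCAAT boxes and 1 GC box (GGGCGG), in Cdkn2c 3 GC boxes, and in Cdkn2d 1 CCAAT box, 3 GC boxes and 1 p53 half-site that overlaps a GC box. GC boxes were found in 32.7% and CCAAT boxes in 33.8% of all 32851 RefSeq windows of this length, and p53 half-sites in 7.13%. Windows were matched by symbol for 6 of the 7 members (not Cdkn1c), 9 in all. The E2F site (TTTCCCGC or TTTGGCGC, 1.3% of windows) was matched only at the upstream start of Cdkn2a, beside 2 GC boxes. A CRE (TGACGTCA, 1.55%) and a CHR element (TTTGAA, 16%) were matched only in Cdkn2b. The downstream start of Cdkn1a held 2 GC boxes, and those of Cdkn2a and Cdkn2c held no match. The values are per gene, so they do not tell which start of these genes the RNA came from. The other motifs searched on both strands, without a match in any of the 9 windows, were an E box (CACGTG, 6.02%), an AP-1 site (TGANTCA, 6.75%), a FoxO site (GTAAACA, 3.17%), a TATA box (TATAAA, 12.4%) and the CArG box (1.47%). A match is a string of letters and not a bound site.

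Of the 49 combinations of a member and a window between 1 and 27 h, 15 were called, 1 higher and 14 lower than in starved cells. The higher call was Cdkn1a at 1-3 h. Cdkn1b was lower from 1-3 h to 11-14 h, Cdkn2c at 4-6 h and 7-10 h, Cdkn2d at 4-6 h, Cdkn2b at 7-10 h and 11-14 h, and Cdkn1c from 7-10 h to 24-27 h. Cdkn2a was not called in any window. Over all genes 13.3% were called higher and 32.0% lower in some window, against 1 and 5 of the 7 members.

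**Figure D1:**
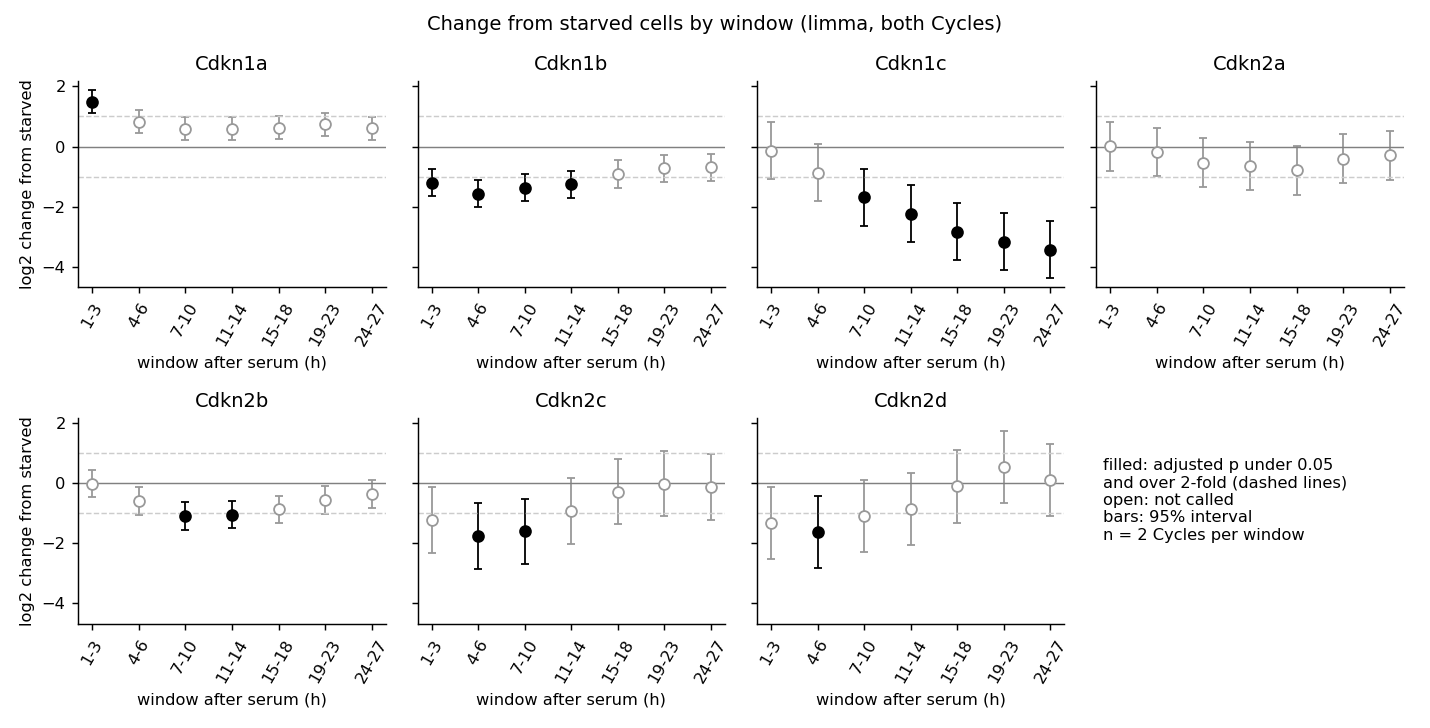
Log2 change of each member from starved cells in 7 windows after serum, from limma with the Cycle as a block. Points are estimates, bars are 95% intervals, filled points were called and dashed lines mark a 2-fold change; Cdkn1a rises at 1-3 h, Cdkn1b and Cdkn2c dip early, and Cdkn1c falls in every later window.

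Cdkn1a, on chr17:29227924-29237667 (+) of NCBIM37, encodes p21, which is both a target of p53 and an immediate response to growth factors. It rose at once and then kept a level above that of starved cells. In Cycle 1 the starved values were 1552 and 1660, and the libraries at 1, 1.5, 2, 2.5 and 3 h had 4297, 5815, 6983, 6406 and 4639. In Cycle 2 the starved values were 1739 and 1844, and the same hours had 2659, 3796, 4968, 5110 and 4470. All 10 libraries at 1-3 h lay above all 4 starved libraries, a position not counted over all genes. The peak was at 2 h in Cycle 1 (4.35-fold) and 2.5 h in Cycle 2 (2.85-fold). The log2 change at 1-3 h was 1.49 (SE 0.17, adjusted p = 0.00031, limma), where 4.94% of genes were called higher.

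After the peak the value of Cdkn1a came down to 2345 at 6 h in Cycle 1 and 3031 in Cycle 2. At 4-6 h the log2 change was 0.82 (adjusted p = 0.0034, limma), under the 2-fold limit in size, and 7.56% of genes were called higher. From 7-10 h to 24-27 h it was between 0.59 and 0.73, also under that limit. The values of Cdkn1a at 24-27 h were still 2690 on average at the shared hours of Cycle 1 and 2485 ± 106 (SD, n = 4 libraries) in Cycle 2. In neither Cycle was any value of Cdkn1a after serum below the starved libraries of its own Cycle. Scaling by median ratios or TMM, or edgeR on whole reads, also called Cdkn1a higher at 4-6 h, with a log2 change of up to 1.04.

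Cdkn1b, on chr6:134870419-134875531 (+), encodes p27, the inhibitor most closely tied to the starved state. Its transcript fell within the first hours and recovered slowly. Starved values were 774 and 596 in Cycle 1 and 697 and 621 in Cycle 2. At 1, 1.5, 2, 2.5 and 3 h the values of Cycle 1 were 382, 304, 219, 130 and 160. Cycle 2 had 501, 457, 337, 324 and 316 at those hours. The starved and 1-3 h libraries did not overlap in either Cycle, and how many of all genes share this was not counted. The fall was deeper in Cycle 1, where the value at 2.5 h was 0.19 of the starved mean. In Cycle 2 the lowest was 0.44, at 6 h.

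The log2 change of Cdkn1b was -1.20 at 1-3 h (adjusted p = 0.0019, limma), -1.57 at 4-6 h (adjusted p = 0.00031), -1.37 at 7-10 h and -1.26 at 11-14 h, each with an SE of 0.20. In these 4 windows 10.4%, 18.1%, 15.5% and 15.3% of all genes were called lower. The later differences were smaller, -0.92, -0.72 and -0.70 in the windows from 15-18 h to 24-27 h (adjusted p = 0.019 in the last, limma), and were not called. The call at 1-3 h is lost with median-ratio scaling (-0.95), TMM (-0.97), edgeR on whole reads (-0.91) and Cycle 2 alone with its libraries as replicates (-0.79). That at 11-14 h is lost with Cycle 2 alone (-0.87).

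Cdkn1c, on chr7:150644255-150646955 (-), encodes p57, an imprinted inhibitor of the embryo that marks cells leaving the cycle. It was not called in the first 2 windows and was lower in all 5 later ones, without a return to 0.5 of its starved mean by the end of either Cycle. Starved values were 5381 and 4685 in Cycle 1 but 717 and 780 in Cycle 2. In Cycle 1 the libraries at 1 to 3 h lay between 3405 and 5336 and those of 24-27 h between 206 and 412. In Cycle 2 the values were 858, 736, 710, 671 and 621 at 1, 1.5, 2, 2.5 and 3 h, and 108, 107, 108 and 157 at 24, 25, 26 and 27 h. The lowest library was 33 h in Cycle 1, at 122, and 25 h in Cycle 2, at 107.

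The log2 change of Cdkn1c was -0.14 at 1-3 h and -0.88 at 4-6 h (adjusted p = 0.11, limma). In the windows from 7-10 h to 24-27 h it was -1.69, -2.23, -2.84, -3.17 and -3.43, with an SE of 0.42 and an adjusted p of 0.00033 (limma) in the last. The last 5 windows were called. Genes called lower made up 15.6%, 17.2% and 18.2% at 15-18 h, 19-23 h and 24-27 h. Without the block none of the 5 is called, with adjusted p from 0.052 to 0.31 in limma. The starved means of the Cycles were 6.72-fold apart. Within a Cycle the mean at 24-27 h was 0.056 of the starved mean in Cycle 1 and 0.16 in Cycle 2.

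**Figure D2:**
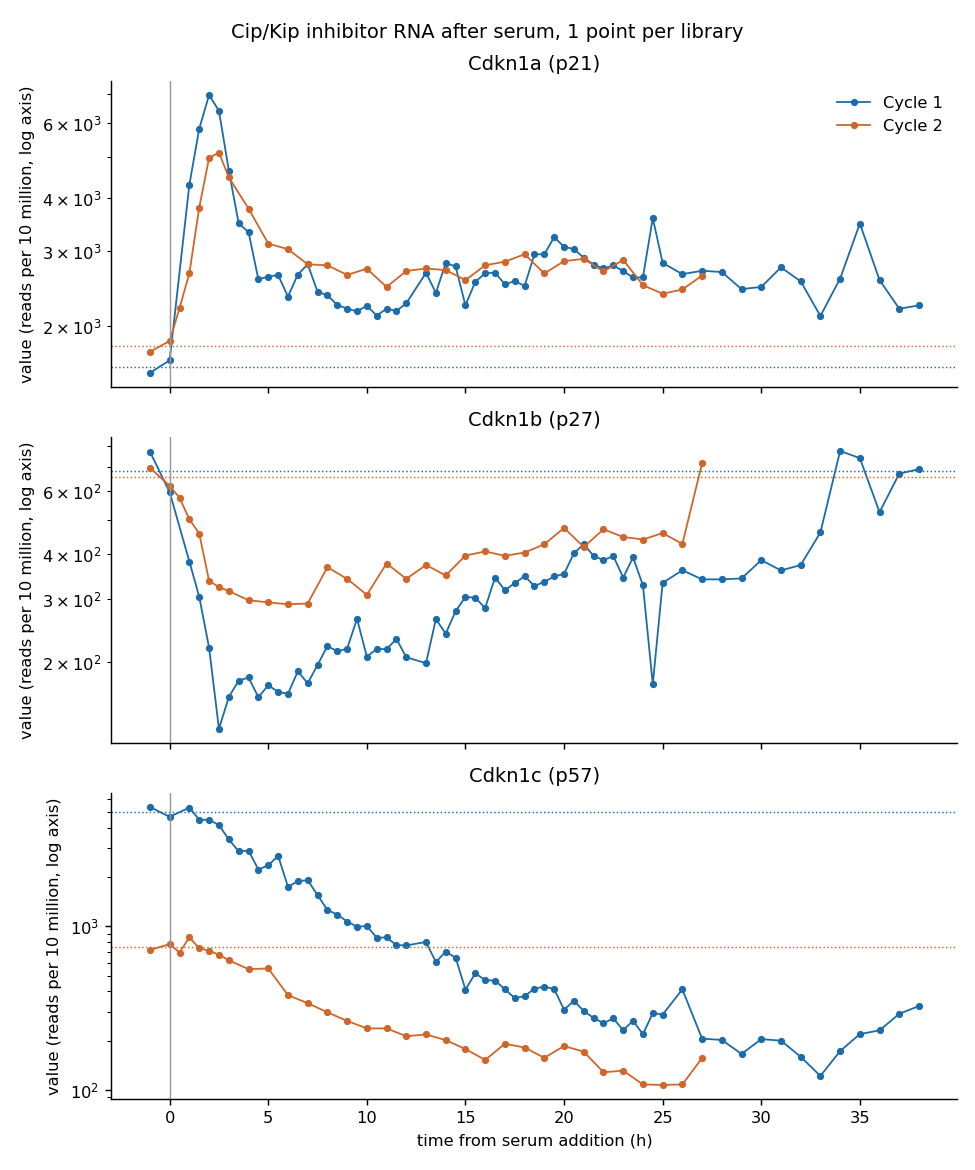
Values of the 3 Cip/Kip genes by hour after serum, on a log axis, in Cycle 1 (blue) and Cycle 2 (orange), with dotted lines at the starved mean of each Cycle. Cdkn1a peaks at 2 and 2.5 h, Cdkn1b reaches its lowest values by 6 h, and Cdkn1c falls to its lowest values at 33 and 25 h and starts 6.72-fold higher in Cycle 1.

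Among the Ink4 genes, 3 of 4 were called lower in some window, where 32.0% of all genes were. Cdkn2c and Cdkn2d fell first, and Cdkn2b later. The Ink4 time courses that fell below 0.5 of the starved mean came back to it or over it for at least 2 successive libraries. Those of Cdkn1b did so too, and those of Cdkn1c did not. Some lay under it again later, such as Cdkn2d (0.27 at 12 h) and Cdkn2a (0.47 at 26 h) in Cycle 2.

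Cdkn2a, on chr4:88920377-88940557 (-), encodes p16 and, from another first exon, p19Arf. The deposited entry averages over its transcripts, so these 2 products cannot be told apart here. Starved values were 53.4 and 58.4 in Cycle 1, and 115 and 129 in Cycle 2. Its largest limma difference was -0.79 at 15-18 h (SE 0.36, adjusted p = 0.10), no window was called by limma or by edgeR, and 0 of 7 had an unadjusted p under 0.05. The Cycles went separate ways late on, since the values at 24-27 h were 1.29 times the starved mean at the shared hours of Cycle 1 and 0.53 in Cycle 2. With Cycle 2 alone, Cdkn2a was called lower at 15-18 h (-1.06).

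Cdkn2b, on chr4:88952198-88956941 (-), encodes p15 and is the gene next to Cdkn2a, known for its response to Tgf-beta. In Cycle 1 the starved values were 280 and 274 and the libraries at 1, 1.5, 2, 2.5 and 3 h had 489, 431, 361, 337 and 323. In Cycle 2 the starved values were 404 and 392 and the same hours had 366, 296, 241, 269 and 250. The early hours were above the starved libraries in Cycle 1 and below them in Cycle 2, and 2.21% of all combinations of a gene and a window were opposite between the Cycles in this way. Both Cycles then went below the starved level. At 7, 8, 9 and 10 h the values of Cycle 2 were 126, 138, 165 and 140, and the 8 libraries of Cycle 1 in this window, which there starts at 6.5 h, lay between 150 and 218.

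The log2 change of Cdkn2b was -0.02 at 1-3 h, -0.59 at 4-6 h, -1.09 at 7-10 h (SE 0.20, adjusted p = 0.0027, limma) and -1.05 at 11-14 h (adjusted p = 0.0034). In the last 3 windows it was -0.87, -0.56 and -0.36, and was not called. The 2 calls lie close to the 2-fold limit. They are lost with median-ratio scaling (-0.98 and -0.99), TMM (-0.98 and -0.98), edgeR (-0.97 and -1.00) and Cycle 1 alone (-0.69 and -0.66).

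Cdkn2c, on chr4:109333481-109339794 (-), encodes p18, an inhibitor that E2f factors are known to induce in cycling cells. It was low for some hours after serum and then came back. Starved values were 141 and 110 in Cycle 1 and 250 and 229 in Cycle 2. In Cycle 1 the values at 1, 1.5, 2, 2.5 and 3 h were 89.2, 71.8, 56.0, 35.3 and 23.0. In Cycle 2 they were 179, 134, 93.3, 75.7 and 95.4. Every library at 1-3 h lay below the starved libraries of its Cycle, and the share of all genes that did so was not counted.

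The log2 change of Cdkn2c was -1.22 at 1-3 h (SE 0.48, adjusted p = 0.078, limma), which was not called, then -1.75 at 4-6 h (adjusted p = 0.015) and -1.60 at 7-10 h (adjusted p = 0.024), which were. It was -0.92 at 11-14 h and between -0.28 and -0.01 from then on. In Cycle 1 the value passed back over the 0.5-fold line at 11.5 h and averaged 191 ± 14.9 (SD, n = 10 libraries) at 19-23 h, above the starved libraries. In Cycle 2 it passed the line at 17 h and averaged 162 ± 21.0 (SD, n = 5) at 19-23 h, below them. Without the block both calls are lost (adjusted p = 0.051 and 0.077, limma).

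Cdkn2d, on chr9:21092907-21095653 (-), encodes p19Ink4d and was near the detection limit. Its reads numbered 0 to 24 per library, with a median of 6, and 4 libraries of Cycle 1 had none, at 2.5, 4, 5 and 10.5 h, where 3 reads would have given 2.22 to 2.52. Starved values were 7.52 and 3.65 in Cycle 1 and 13.4 and 10.7 in Cycle 2. From summed reads, Cycle 1 had 5.11 (95% Poisson interval 2.34 to 9.70) when starved, 0.588 (0.160 to 1.51) at 4-6 h and 13.4 (11.5 to 15.7) at 19-23 h. Cycle 2 had 11.9 (7.87 to 17.4), 5.30 (2.74 to 9.26) and 11.0 (8.34 to 14.1). Those intervals cover counting error only.

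The log2 change of Cdkn2d was -1.62 at 4-6 h (SE 0.54, adjusted p = 0.031, limma), its single call, and 0.54 at 19-23 h, which was not called. The call at 4-6 h is lost without the block (adjusted p = 0.069, limma), with a pseudocount of 5 (-0.82), with edgeR on whole reads (adjusted p = 0.12), with Cycle 2 alone (-1.07), with 0 h as the baseline (adjusted p = 0.072, limma) and without the -1 h library of Cycle 1 (adjusted p = 0.064, limma). With Cycle 1 alone the gene was called higher at 19-23 h (1.25).

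**Figure D3:**
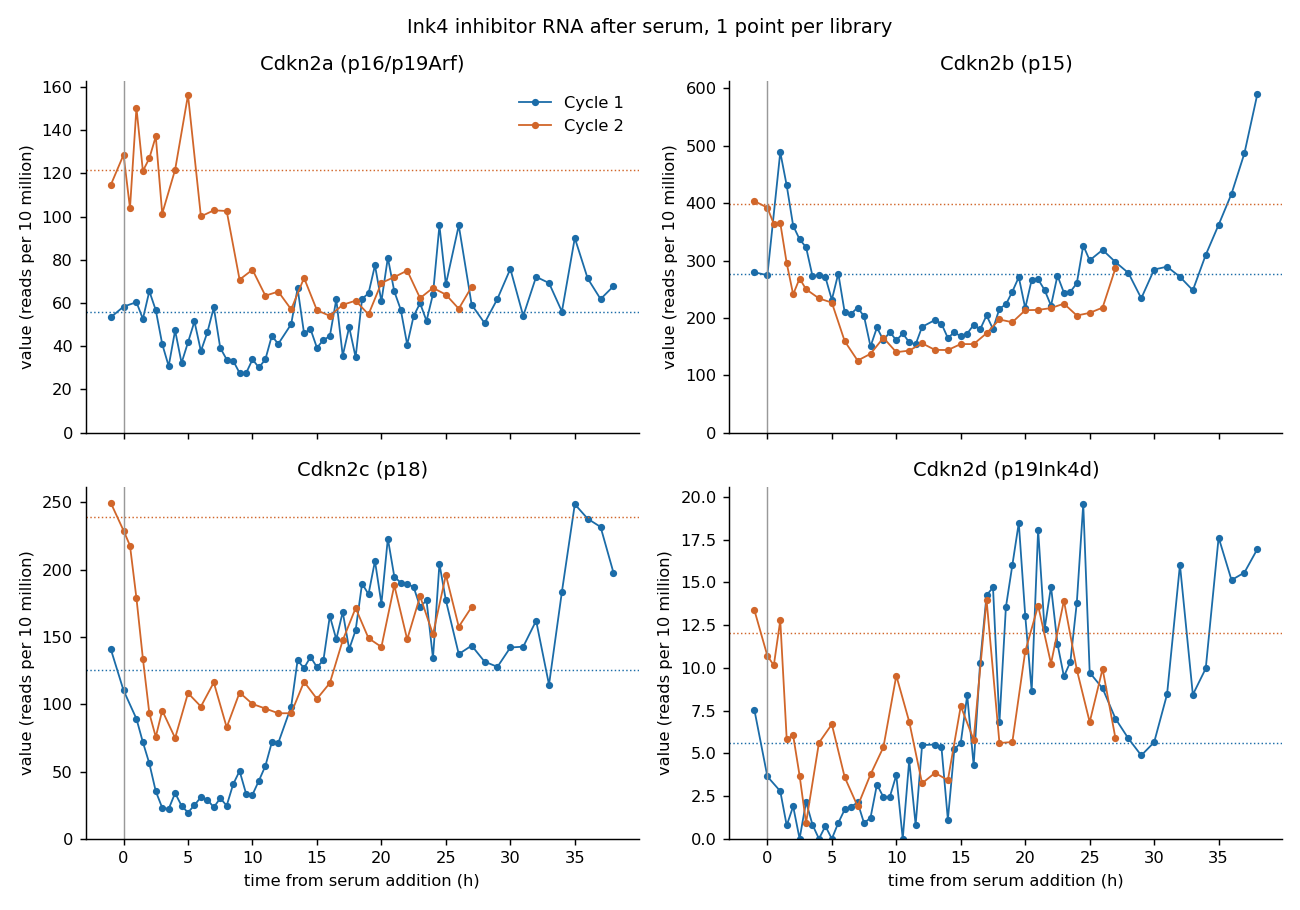
Values of the 4 Ink4 genes by hour after serum, on linear axes, in Cycle 1 (blue) and Cycle 2 (orange), with dotted lines at the starved mean of each Cycle. Cdkn2c drops within 3 h in both Cycles and returns, Cdkn2b drops later, and Cdkn2d stays under 20 throughout.

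The order of the falls was described against the starved mean of the same Cycle, with a fall dated from the first of 2 successive libraries below 0.5 of it. In Cycle 1 Cdkn2d was first, at 1 h and on 3 reads or fewer, then Cdkn1b (1.5 h), Cdkn2c (2 h), Cdkn1c (4.5 h) and Cdkn2a (9 h), and Cdkn2b never passed. In Cycle 2 Cdkn2c was first, at 2 h, then Cdkn1b and Cdkn2d (2.5 h), Cdkn2b (6 h), Cdkn1c (7 h) and Cdkn2a (15 h). Cdkn1b, Cdkn2c and Cdkn2d came before Cdkn1c and Cdkn2a in both Cycles, while neighbours in each order lay 0 to 8 h apart with 1 library per time. With 0 h alone as the baseline, Cdkn2d in Cycle 1 moved to 3.5 h, behind Cdkn1b (2 h) and Cdkn2c (2.5 h), and Cdkn1b in Cycle 2 moved to 4 h, behind Cdkn2c and Cdkn2d, so the order among these 3 depends on the baseline. Of the 14 time courses 11 fell in this sense and 3 rose over 2-fold, with Cdkn2d in Cycle 1 in both counts. The 3 were Cdkn1a in both Cycles and Cdkn2d from 17 h in Cycle 1. How many time courses of all genes pass the same rules was not counted. The first of 2 successive libraries back at 0.5 or above was at 19.5 h and 8 h for Cdkn1b and at 11.5 h and 17 h for Cdkn2c. For Cdkn2b in Cycle 2 it was at 20 h. The fall of Cdkn2a in Cycle 1 rested on the libraries at 9 h (0.495) and 9.5 h (0.492), and the gene was back at 10 h. Later libraries of Cdkn1b lay under 0.5 again in both Cycles.

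Comparing each window with the one before it, limma called none of 42 differences of the members, with 1 adjusted p under 0.05, 3 unadjusted p under 0.05 and none called by edgeR. The share of all genes called in either direction in those steps was 8.26% between 1-3 h and 4-6 h, 1.13% in the next step, 0.0126% in the third and 0.00%, 0.00% and 0.00% in the others.

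**Figure D4:**
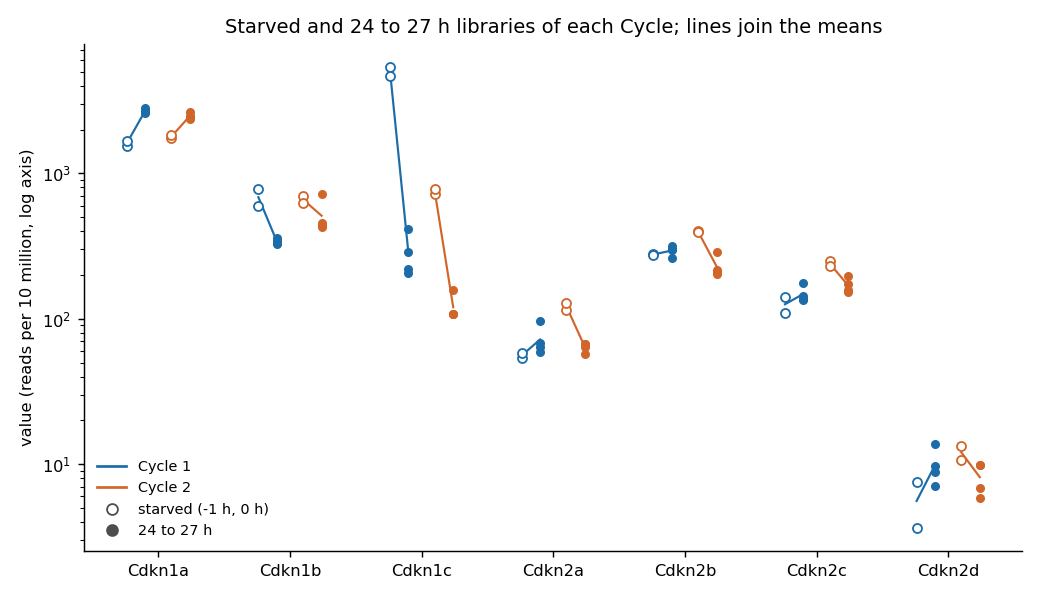
Starved values (open points) and values at 24-27 h (filled points) of the 7 genes in both Cycles, on a log axis, with lines joining the means. Cdkn1c spans 5033 to 281 in Cycle 1 and 749 to 120 in Cycle 2, and Cdkn2d sits at the bottom in both.

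The level per kilobase of exon puts the 7 genes in order when starved. Each value was divided by the mean exon length of the annotated transcripts of its gene, from 891 bases for Cdkn2a to 3472 for Cdkn1b. The order depends on these lengths, and others were not tried. In Cycle 1 Cdkn1c (2632) was above Cdkn1a (1371), followed by Cdkn2b (199) and Cdkn1b (197), which differed by less than the spread of their 2 libraries, then Cdkn2c (70.3) and Cdkn2a (62.7), whose libraries overlapped, and Cdkn2d (4.39). In Cycle 2 Cdkn1a (1529) led, followed by Cdkn1c (392), Cdkn2b (286), Cdkn1b (190), Cdkn2a (136) and Cdkn2c (134), which overlapped, and Cdkn2d (9.47). The member farthest apart between the Cycles was Cdkn1c, with a starved ratio of Cycle 1 to Cycle 2 of 6.72, and 71 of 12309 genes with a mean of at least 20 (0.577%) were at least as far apart. Cdkn2a, Cdkn2b, Cdkn2c and Cdkn2d were 2.18, 1.44, 1.90 and 2.16 times as high in Cycle 2, and Cdkn1a 1.12 times, while Cdkn1b was at 0.962.

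Other markers also differed between the starved cells of the Cycles. All 7 S phase markers and all 6 M phase markers were higher in Cycle 2, with sums 2.13 and 3.24 times those of Cycle 1, and 6 of 9 fibroblast markers were higher in Cycle 1, with sums of 503914 to 519805 against 348026 to 366440. The macrophage sum was 207 to 259 in Cycle 1 and 367 to 436 in Cycle 2, and the skeletal muscle sum, carried by Des, was 609 to 697 and 1658 to 1667, while the other 2 of its 3 markers were higher in Cycle 1. The epithelial sum was 264 to 266 in Cycle 1 and 136 in Cycle 2, with 4 of 4 markers higher in Cycle 1, and the endothelial sum was 236 to 272 and 176 to 224, with 3 of 4 higher in Cycle 1. The neural sum was 125 to 129 in Cycle 1 and 173 to 205 in Cycle 2, although 2 of 3 markers were higher in Cycle 1. The part of all these markers in the differences of the members was not tested. With 1 culture series per Cycle the difference itself has no replicate. After serum, Cdkn1b was higher in Cycle 2 at 28 of the 29 shared hours and Cdkn2a at 26, whereas Cdkn2b was higher there at 1 and Cdkn1c at none. The correlation of the 2 Cycles over 31 hours, which share the order of sampling, was 0.97 for Cdkn1c, 0.88 for Cdkn1b, 0.87 for Cdkn1a, 0.80 for Cdkn2b, 0.70 for Cdkn2c, 0.53 for Cdkn2d and 0.052 for Cdkn2a.

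Cycle 1 ran on to 38 h without a second series, and its 5 libraries at 34-38 h were set beside the 6 at 28-33 h. Cdkn1b had 777, 742, 525, 672 and 691 at 34 to 38 h, all above the 340 to 460 of the earlier hours. Cdkn2b had 310, 362, 416, 487 and 590, above 234 to 289, and Cdkn2c had 184, 249, 238, 232 and 198, above 115 to 162. The ratio of means was 1.81, 1.62 and 1.61 for these 3 genes, and 11.8% of all genes lay wholly above and 5.97% wholly below. The other 4 members overlapped, with ratios of 1.05 for Cdkn1a, 1.41 for Cdkn1c, 1.09 for Cdkn2a and 1.83 for Cdkn2d. The late libraries are 1 culture series, so these are descriptions with no test.

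Genes that followed a member most closely were found by Pearson's r over the 31 shared hours, taking the lower r of the 2 Cycles among 11881 genes with a mean of at least 20. Cdkn1a was followed by Ist1 (0.93), Ippk (0.91) and Mettl6 (0.90), and Cdkn1b by Tbx15 (0.90) and Phip (0.88). Cdkn1c was followed by Gpc3, C1s and Col3a1, each at 0.98. Those of Cdkn2b were Gas6 (0.92), Ccdc80 (0.89) and Zcchc5 (0.85), and those of Cdkn2a were Cyb5r3 (0.76), B9d2 (0.74) and H2afv (0.73). Cdkn2c was closest to Ndc80 (0.91), Bub1b (0.91) and Knstrn (0.91), which act at the kinetochore and spindle in mitosis. Ranking by Spearman's rho kept Mettl6 for Cdkn1a, Tbx15 for Cdkn1b, Knstrn for Cdkn2c and Gas6, Ccdc80 and Zcchc5 for Cdkn2b. It kept no gene for Cdkn1c or Cdkn2a. Cdkn2d was not ranked because its mean was under 10.

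The partners and known regulators of the inhibitors were counted in lists, with values given as log2 changes from starved cells. Of 11 cyclins and kinases bound by the inhibitors 3 were called higher in some window, 1 lower and 7 in none. The shares of all genes called in some window were 13.3% higher and 32.0% lower. Ccnd3, a D-type cyclin, was lower at 4-6 h (-1.10, adjusted p = 0.00029, limma), while Ccnd1 was higher at 24-27 h (1.40, adjusted p = 0.023) and Ccne1, which activates Cdk2, at 15-18 h (1.79, adjusted p = 0.031). Over all genes 6.28% were called higher at 15-18 h and 5.76% at 24-27 h. Of 10 turnover genes of p27 and p21 in the table, Cks1b, a cofactor of Skp2, was higher at 19-23 h (1.07), Dtl, the substrate receptor for p21, was lower at 4-6 h (-1.18) and 8 were not called.

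Of 8 pocket protein and E2f genes 1 was called higher, 2 lower and 5 in no window, with Rbl2 at -1.67, E2f1 at -1.15 and E2f4 at 1.10, all at 4-6 h. Of 10 genes of the p53 axis 5 were called lower and the other 5 not called. Over all genes 13.3% were called higher and 32.0% lower in some window. Gadd45a, a p53 target, was at -2.50 at 24-27 h and Sesn1 at -2.29 at 4-6 h. Of 4 FoxO factors, which are known to induce Cdkn1b in starved cells, Foxo3 (-1.64 at 7-10 h) and Foxo6 (-1.37 at 15-18 h) were lower and 2 were not called.

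Of 13 genes from Tgf-beta to Ink4b 6 were called higher and 3 lower in some window, Smad3 counting in both, and 5 were not called. Tgfb1, a ligand, was at 3.13 at 4-6 h and Myc, which represses Cdkn2b, at 2.05 at 1-3 h, while Tgfbr2, the receptor, was at -1.84 at 24-27 h and Klf4 at -1.77 at 15-18 h. Of 15 regulators of the Ink4/Arf locus 2 were called higher and 6 lower, Kdm6b counting in both, and 8 were not called. Ets1, known to activate Cdkn2a, was at 2.82 and Kdm6b, a demethylase of H3K27, at 1.35 at 1-3 h, whereas the Polycomb gene Cbx8 was at -1.88 at 1-3 h and Twist1 at -1.48 at 4-6 h. In some window 13.3% of all genes were called higher and 32.0% lower. By window, 7.01% were called higher at 7-10 h, 6.59% at 11-14 h and 6.19% at 19-23 h.

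Of 7 S phase markers 5 were called higher, with Cdc6 at 2.01 at 11-14 h and Rrm2 at 2.60 at 19-23 h. The share of all genes called higher in some window was 13.3%. Of 6 M phase markers none was called, with 2 at an unadjusted p under 0.05 in limma and 2 called by edgeR. Of these named list genes, Ccnd1 loses its call without the block and with Cycle 2 alone, Ccnd3 with either scaling, edgeR and Cycle 2 alone, Ccne1, Cdc6, Cks1b, E2f4, Foxo6 and Twist1 with Cycle 2 alone, Dtl with either scaling, and E2f1 with either scaling and edgeR. The median of all genes was below the starved level by 0.26 in the log2 scale at 1-3 h, and relative to it Cdkn1a was at 1.75, Cdkn1b at -0.94, Cdkn2c at -0.96 and Cdkn2d at -1.06. Called at 1-3 h were 785 genes higher and 1651 lower, and 1098 and 897 with median-ratio scaling, 1051 and 950 with TMM, and 1104 and 792 with edgeR.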

How the data were processed

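RNA of CF-1 mouse embryonic fibroblasts was sequenced by the authors on HiSeq 2500 as single reads of TruSeq Stranded mRNA libraries. Per the labels and methods, reads were aligned with STAR to mm9 and counted on exons with HOMER, ignoring strand, so that a gene and its antisense partner cannot be told apart, after CASAVA; versions are not given in the sources used here. The deposited signal is the exon read count scaled by the authors to 10000000 reads per library. The worth of 1 read was recovered from the low values of a library, of which 94.9% to 97.0% were whole within 0.1. Values of Cdkn1a, Cdkn1c and Cdkn2a, averages over transcripts, were whole in 45%, 65% and 47% of libraries. Depth was 5067435 to 14500331 reads. Of 96 columns 95 were matched to a library by name and 1 was not matched and not used. The 12.5 h library of Cycle 1 was left without a column.

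The labels gave the Cycle and the hour, and the hours were grouped here into starved, 1-3, 4-6, 7-10, 11-14, 15-18, 19-23 and 24-27 h, in 2 Cycles. In Cycle 1 the hours 3.5, 6.5, 10.5, 14.5, 18.5 and 23.5 h were put in the window that follows them. They are not shared hours, so values over every library of a window cover more hours in Cycle 1 than in Cycle 2. Means of log2(value + 1) per window and Cycle over shared hours were fitted with limma 3.58.1 in R 4.3.3, with the Cycle as a block, since windows of the same Cycle deviated together (28 pairs of windows, correlations 0.152 to 0.701, median 0.444). p-values were Benjamini-Hochberg adjusted over 15895 genes. A test on simulated data for 7-10 h against starved, on 15895 genes, recovered 194 of 200 planted changes and called 23 of 15695 unchanged genes. The planted changes were 1.5 or 3 in log2 size, in genes with a mean of at least 20. Its noise had the same spread for every gene and was independent between windows. The rate therefore does not apply to the members, whose SEs went up to 0.54. Alternatives were scaling by median ratios and TMM, edgeR 4.0.16 on whole reads, pseudocounts of 0.5 and 5, a mean of at least 10, 0 h as baseline, each hour a group, every library of a window, no block, and leaving out a Cycle or a library. With 1 Cycle alone its libraries stood in as replicates. Poisson intervals and the floor of 3 counts cover counting error only.

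The named genes were the members, the 3 genes most like each member with a mean of at least 10, and at most the 2 largest rises and 2 largest falls called in each list. One gene that this rule names is not reported here. Members and lists were chosen with earlier results of these data known. Coordinates of genes are of NCBIM37; promoters came from RefSeq on GRCm38.p6. Tables were handled with pandas 2.3.3 and numpy 2.4.6 under Python 3.11.15, intervals came from scipy 1.17.1 and plots from matplotlib 3.10.9.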

Additional observations from a re-analysis of the deposited data

Results flagged for a closer look

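Within a window, a library stood apart from the others of its Cycle by Dixon's criterion in 11 of 112 groups of a member. The criterion is set at about 1 in 20 for independent libraries. Successive hours are not independent and the members share libraries, so that is not the rate to be expected here. The share over all genes was not counted. At 24.5 h of Cycle 1 Cdkn1a had 3586 against 2600 to 2814 and Cdkn1b 174 against 328 to 392. That library lay farthest from its neighbours among 60 of Cycle 1, with a median difference over genes of 0.411 on the log2 scale, and it is not a shared hour, so among the fits it entered only the one that used every library of a window, where Cdkn1b at 24-27 h was at -0.76 in place of -0.70. At 27 h of Cycle 2, the last library, Cdkn1b had 718 against 428 to 459, Cdkn1c 157 against 107 to 108 and Cdkn2b 287 against 204 to 218. Without it Cdkn1b at 24-27 h was at -0.78 in place of -0.70, and no call of a member changed; this alternative was chosen after seeing the data. At 11 h of Cycle 2 Cdkn1a was lowest, at 2470, and Cdkn2d highest, at 6.86. The others were Cdkn1b at 33 h of Cycle 1 (460), Cdkn2b at 12 h of Cycle 2 (156), Cdkn2c at 14 h of Cycle 2 (117) and Cdkn2d at 32 h of Cycle 1 (16.0).

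At the shared hours, in 3 of 49 combinations of a member and a window every library moved one way in Cycle 1 and the opposite way in Cycle 2, as did 2.21% of the combinations over all genes, and the difference was not tested. Cdkn2b at 1-3 h averaged 1.40 of the starved mean in Cycle 1 and 0.714 in Cycle 2. Cdkn2c at 19-23 h averaged 1.45 and 0.675, and Cdkn2a at 24-27 h 1.29 and 0.53. The 23.5 h library of Cycle 1, no shared hour, had 51.7 for Cdkn2a, below both starved libraries.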

How the results depend on the processing

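Of 269 values of called members under the alternatives 243 kept their call, 26 lost it and 0 changed direction. Of 606 values of members not called 30 became called. Without the replicate block 7 of the 15 calls were made, 6 lower in place of 14, and those lost were all 5 of Cdkn1c, both of Cdkn2c and that of Cdkn2d. With the adjusted p alone 27 were called, 7 of them higher, and 1 difference between successive windows. With median-ratio scaling, TMM or edgeR 2 were called higher. Leaving out a Cycle or a starved library gave 14 to 18 calls, 1 to 2 higher and 13 to 16 lower, and 0 to 2 between successive windows. A 1.5-fold limit gave 5 rising time courses in place of 3. Spearman's rho kept 6 of the 18 most-alike genes. Of 396 values of the named list genes 379 kept their call.

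Over all genes, those called lower at 1-3 h went from 1651 to 897 with median ratios, 950 with TMM and 792 with edgeR, and were 946 with Cycle 2 alone and 2661 with Cycle 1 alone. A mean of at least 10 gave 1580, 1563, 1771 and 1826 lower in the windows from 11-14 h to 24-27 h, against 2427, 2481, 2738 and 2896. The adjusted p alone gave 1458 to 2883 higher and 4228 to 5175 lower. Cycle 2 alone gave 661, 620 and 533 higher from 15-18 h to 24-27 h, and 1457, 1649, 1794 and 1805 lower from 11-14 h. Cycle 1 alone gave 1680, 1737, 1814 and 1746 higher from 11-14 h. The cause was not tested. Cdkn2d is limited by depth, with a median of 6 reads.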

Other observations

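Over the 31 shared hours the values of Cdkn1b and Cdkn2c had a correlation of 0.767 in Cycle 1 and 0.811 in Cycle 2, and those of Cdkn2c and Cdkn2d 0.798 and 0.637. Cdkn1c and Cdkn2a had -0.069 and 0.902, and Cdkn1a and Cdkn2b 0.633 and -0.014. These are descriptions over successive hours of 1 culture series.

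The library at 0.5 h, sampled in Cycle 2 only, had 2202 for Cdkn1a, 575 for Cdkn1b, 692 for Cdkn1c, 104 for Cdkn2a, 364 for Cdkn2b, 218 for Cdkn2c and 10.2 for Cdkn2d. Cdkn1a was already above both starved libraries of that Cycle, and the other 6 were below both. Some gaps were small, as the nearer starved library had 717 for Cdkn1c and 10.7 for Cdkn2d. The share of all genes outside both starved libraries at 0.5 h was not counted, so the count says nothing particular about the members.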
